A study of Mus musculus with 6 samples.

Results

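The genes described here are the tumour necrosis factor (TNF) superfamily ligands, their receptors, and the adaptors that carry their signals. They were taken from the gene table by symbol: every name that starts with Tnfsf or Tnfrsf, and 20 further names from Tnf and Fas to the Traf genes, Tradd and Ripk1. Of 17905 genes in the table, 49 were found, and 36 of them reached 1 FPKM (the fragments mapped to a gene, corrected for its length and for the size of the library) in at least 1 library. The 36 were 13 of 17 ligands, 16 of 24 receptors and 7 of 8 adaptors. Fasl and Cd40lg, which the selection also names, were not among the 49 genes found by symbol.

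RNA was sequenced from bone marrow-derived macrophages, which are grown from marrow with the growth factor M-CSF, here for 5 days from C57BL/6 mice aged 8 weeks. The cells were labelled WT or KO for Setd2, a histone methyltransferase that marks the bodies of transcribed genes, and the labels do not describe the allele or what deletes it. They were taken at 0 h, or 12 or 24 h after lipopolysaccharide (LPS, the outer membrane lipid of Gram-negative bacteria) at 100 ng/ml. With 1 library in each of the 6 groups, the values below have no replicate error and the differences no replicate check.

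TNF superfamily ligands are mostly membrane proteins that act as trimers, some after being cut from the cell surface. Their receptors either carry a death domain, which binds adaptors such as TRADD and can start cell death, or bind TRAF proteins directly and switch on NF-κB. In macrophages, LPS sensed through Toll-like receptor 4 is a classic inducer of TNF, and TNF then acts back on the same cells. Several other ligands of the family are known as costimulators of T and B cells.

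Depth was estimated at 21600000 to 22420000 mapped reads a library from the spacing of low FPKM values, if reads were 50 nt long. Setd2 itself was at 7.83, 8.68 and 7.51 FPKM in the WT libraries at 0, 12 and 24 h, and at 9.96, 9.16 and 5.11 in those labelled KO. A gene-level value does not check a deletion of part of a gene, so which libraries lack Setd2 is known from their labels alone, and KO below means labelled KO. All 8 macrophage markers read were detected. Their sum without Lyz2 was 2454, 4046 and 4492 FPKM in WT and 2406, 3259 and 3643 in the libraries labelled KO, while Lyz2 was at 3903 to 9015 FPKM in WT and 17.7 to 54.5 there. The median of KO against WT over the 8, as log2(FPKM + 1), was 0.14, -0.48 and -0.85 at the 3 times, with Lyz2, Itgam (-1.24) and Mertk (-1.01) lower by 2-fold or more at 24 h. The 7 neutrophil markers summed to 86.4, 87.6 and 81.6 FPKM in WT and to 52.1, 41.4 and 66.1 in KO. The part of these shifts in the results was not tested. Differences of KO against WT followed transcript length, with a Spearman rho across 7660 genes of 0.60 at 0 h, 0.13 at 12 h and -0.44 at 24 h. Values with that trend removed are given beside the members whose call they move. Differences below are of log2(FPKM + 1), and a size of 1 (2-fold) or more was called.

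Tnf (gene ID 21926; GRCm38 chromosome 17, 35199367 to 35202007) was the gene of the set that differed most between the genotypes at 24 h. In WT it stood at 7.58, 118 and 39.1 FPKM at 0, 12 and 24 h. In the libraries labelled KO it stood at 14.7, 184 and 100.3 FPKM. The libraries labelled KO were thus above WT at each of the 3 times, and the WT library at 24 h lay below the KO libraries at both LPS times. The FPKM ratio of KO to WT was 1.94 at 0 h, 1.56 at 12 h and 2.57 at 24 h. As differences these were 0.88, 0.63 and 1.34, and the 24 h value was the 1 call of 36 higher at that time, against 2.22% of all 11549 measured genes. With the length trend removed they were 1.07, 0.68 and 1.19, so that the 0 h pair also reached the call. Tnf came down between 12 and 24 h to 0.33 of its 12 h level in WT and to 0.54 in the libraries labelled KO. On the log2 scale these drops were -1.57 and -0.87, the first of them called. Corrected for length they were -1.70 and -1.18, both called. By the depth estimate the 6 values came from about 248 to 5978 reads.

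**Figure D1:**
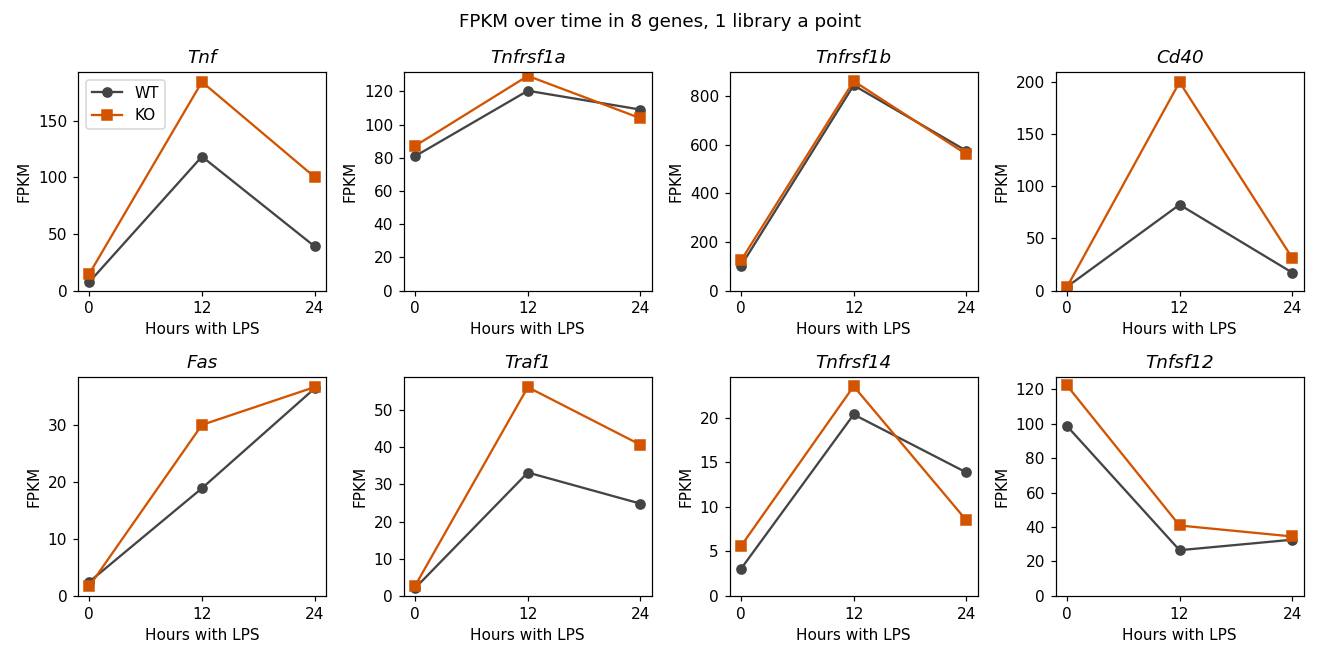
FPKM (vertical axis, linear from 0) against hours with LPS (horizontal axis) for 8 genes, with WT as grey circles and KO as orange squares, 1 library a point and no error bars. Tnf, Cd40 and Traf1 are higher in KO at 12 and 24 h, the receptor genes Tnfrsf1a and Tnfrsf1b lie close together in both genotypes, and Tnfsf12 drops with LPS in both.

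The receptors of TNF showed little difference between the genotypes. Tnfrsf1b, which encodes the TNF receptor without a death domain, was the most abundant receptor gene in every library. It stood at 102, 845 and 575 FPKM at the 3 times in WT, and at 124, 862 and 561 in the libraries labelled KO. With LPS it was higher by 3.03 and 2.48 in WT and by 2.79 and 2.17 in KO, all called, while KO against WT was 0.28, 0.03 and -0.04. Tnfrsf1a, the receptor with a death domain, varied far less. Its WT levels were 81.0, 120.4 and 109 FPKM and its KO levels 87.2, 129 and 104, with differences of KO against WT of 0.11, 0.10 and -0.07. Tnfrsf1b made up 32.2% of the summed receptor FPKM in WT at 0 h and 68.8% at 12 h, and 34.5% and 61.9% in the libraries labelled KO. Neither receptor gene was called in KO against WT at any time.

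Promoter windows are shown of 4 members whose levels are given here in every library and whose transcripts were higher with LPS. Each runs 5′ to 3′ on the strand of the gene, from 250 bases before the annotated start to 50 after it, from RefSeq on GRCm38.p6. Capitals mark matches, on either strand, to TATAAA, to the NF-κB motif (GGG, any 2 bases, TTTCC) or to the interferon-stimulated response element (GAAA, any 2 bases, GAAA). For Tnfrsf9 the window of the second listed start is shown. That of the first holds none of the 3 motifs. Cd40, Traf1 and Fas were also higher with LPS and are not shown. The windows below thus do not give how often members higher with LPS hold a match.
Tnf, chr17:35201958-35202257, minus strand: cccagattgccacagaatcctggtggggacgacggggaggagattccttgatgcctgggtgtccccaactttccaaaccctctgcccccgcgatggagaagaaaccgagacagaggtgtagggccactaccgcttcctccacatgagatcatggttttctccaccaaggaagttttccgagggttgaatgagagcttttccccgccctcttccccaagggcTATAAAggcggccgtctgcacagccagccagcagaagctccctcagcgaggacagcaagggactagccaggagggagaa
Tnfrsf1b, chr4:145246821-145247120, minus strand: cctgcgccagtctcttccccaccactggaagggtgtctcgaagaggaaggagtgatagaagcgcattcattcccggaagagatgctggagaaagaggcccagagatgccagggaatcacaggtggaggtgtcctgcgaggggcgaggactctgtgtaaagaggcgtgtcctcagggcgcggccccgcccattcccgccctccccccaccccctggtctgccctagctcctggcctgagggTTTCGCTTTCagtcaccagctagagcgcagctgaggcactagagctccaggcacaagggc
Tnfrsf9, chr4:150927749-150928048, plus strand: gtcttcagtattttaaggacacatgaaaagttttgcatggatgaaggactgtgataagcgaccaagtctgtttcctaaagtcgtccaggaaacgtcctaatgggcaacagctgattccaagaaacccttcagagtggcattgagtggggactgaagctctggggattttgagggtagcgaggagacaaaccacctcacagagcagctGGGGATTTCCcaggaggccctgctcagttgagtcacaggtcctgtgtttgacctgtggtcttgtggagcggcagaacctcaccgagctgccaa
Tnfrsf14, chr4:154928028-154928327, minus strand: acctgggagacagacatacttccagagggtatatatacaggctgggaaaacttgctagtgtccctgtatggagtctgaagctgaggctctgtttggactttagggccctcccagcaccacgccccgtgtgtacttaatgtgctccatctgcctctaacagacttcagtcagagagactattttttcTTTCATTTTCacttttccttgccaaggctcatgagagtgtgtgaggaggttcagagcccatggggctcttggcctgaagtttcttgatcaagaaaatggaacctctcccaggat

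The Tnf window holds TATAAA at positions -29 to -24, with 0 the first transcribed base, and no match to the other motifs. The Tnfrsf1b window holds a response element match at -10 to -1 and the Tnfrsf14 window one at -64 to -55. The Tnfrsf9 window holds an NF-κB match, GGGGATTTCC, at -43 to -34. RefSeq windows were matched for 28 of the 36 genes (31 windows). The NF-κB motif was in 4 of the 31 (12.9%), for Ltb, Tnfrsf9, Traf2 and Traf3, against 1.63% of all 32851 windows. The response element was also in 4 (12.9%), for Ripk1, Tnfrsf14, Tnfrsf1b and Tnfsf13b, against 3.44%, and TATAAA was in 3 (9.68%) against 13.6%. A match describes these letters in a window and no binding was measured.

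Among the ligands that costimulate lymphocytes, several were higher with LPS. Tnfsf9, the ligand of Tnfrsf9 (4-1BB), ranged from 5.02 to 21.2 FPKM in WT and from 7.99 to 22.7 in the libraries labelled KO. It was higher at 24 h than at 0 h by 1.88 in WT and 1.08 in KO, both called. The KO call ended with the length trend removed (0.78) and with a pseudocount of 5. Tnfsf4 (OX40 ligand) was between 0.18 and 2.51 FPKM in WT and between 0.47 and 4.26 in KO. Its 12 h difference of KO against WT was 0.97, just short of a call, and with the length trend removed it just reached one. Tnfsf15, a ligand of death receptor 3, stood at 0.09, 2.41 and 1 FPKM in WT and at 0.08, 3 and 0.69 in KO. Its peak lay at 12 h in both genotypes. Tnfsf10 (TRAIL), a death ligand known as a target of interferon, stood at 0.37, 5.28 and 1.46 FPKM in WT and at 0.77, 9.93 and 3.15 in KO. It too peaked at 12 h, and each KO value was above the WT value of that time, by 0.37, 0.80 and 0.75.

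Tnfsf8 and Tnfsf14 went the other way and were lower with LPS. Tnfsf8 (CD30 ligand) was at 0.44, 0.17 and 0.02 FPKM in WT and at 2.31, 1.19 and 0.04 in the libraries labelled KO. At 0 h this was a difference of 1.20, the 1 call of 36 at that time, where 2.97% of measured genes were called higher. It rests on about 36 reads in WT and 190 in KO, and a pseudocount of 5 ended the call. Tnfsf8 reached 1 FPKM only in libraries labelled KO, so it is among the 36 through the side where it was higher. Tnfsf14 (LIGHT), a ligand of Tnfrsf14 and the lymphotoxin β receptor, was at 2.69, 1.81 and 0.80 FPKM in WT and at 5.18, 3.32 and 1.04 in KO. Its differences of KO against WT were 0.74, 0.62 and 0.18, none called, and its decline from 0 to 24 h was called in both genotypes (-1.04 and -1.60). The WT call ended with the length trend removed (-0.97), with trimmed-mean scaling and with a pseudocount of 5, which ended the KO call as well. From 0 h, Tnfsf8 was called lower only in KO at 24 h (-1.67), a call that a pseudocount of 5 ended. Its differences at 12 and 24 h in WT were -0.30 and -0.50, and that at 12 h in KO was -0.60. A pseudocount of 0.1 called those in WT. The drop of Tnfsf8 from 12 to 24 h in KO, called at -1.07, was -0.99 with the length trend removed.

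Lta and Ltb, which encode the lymphotoxins and flank Tnf within 11.1 kb on chromosome 17, did not share its level. Lta was at most 0.61 FPKM in WT and 1.11 in KO, and Ltb at most 0.86 and 1.41, each from no more than about 34 reads. Both genes had their highest value at 12 h in each genotype. Neither was called in KO against WT. Lymphocytes are known sources of both. The sum of the 6 T cell markers in the table was 1.72 to 2.14 FPKM in WT and 1.40 to 2.67 in KO, with 1 marker over 1 FPKM. The 6 B cell markers summed to 4.08 to 7.47 and 3.39 to 7.17, with Cd22 and Cd79b over 1 FPKM. The 6 natural killer cell markers summed to 0.30 to 0.81 and 0.57 to 2.91, with Klrk1 at 2.87 FPKM in KO at 12 h. Pax5, Ncr1 and Cd3e were at 0.07 FPKM or less in all libraries. The part of such cells in these values was not tested. In bulk RNA, fewer cells of a type and less RNA per cell cannot be told apart.

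The genes for APRIL and TWEAK carried the lower side of the LPS response. Tnfsf12 (TWEAK) was the most abundant ligand gene before LPS, at 98.7 FPKM in WT and 122 in KO. At 12 and 24 h it was at 26.5 and 32.6 FPKM in WT and at 40.9 and 34.5 in KO. All 4 differences from 0 h were called, from -1.86 to -1.56. Tnfsf13 (APRIL), a survival factor for plasma cells, went from 26.5 FPKM at 0 h to 4.58 and 3.38 in WT, and from 18.7 to 4.93 and 4.74 in KO. Tnfsfm13, the read-through of both genes, went from 16.8 to 4.50 and 2.91 FPKM in WT, and from 16.2 to 6.16 and 3.77 in KO. The 3 genes overlap on chromosome 11 (69682577 to 69696098), so how reads were split among them is uncertain. All 3 were called lower with LPS at both times in both genotypes, and none was called in KO against WT. The KO call of Tnfsfm13 at 12 h ended with trimmed-mean scaling and with a pseudocount of 5. Tnfsf13b (BAFF), the other B cell factor, stayed between 1.08 and 1.92 FPKM.

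**Figure D2:**
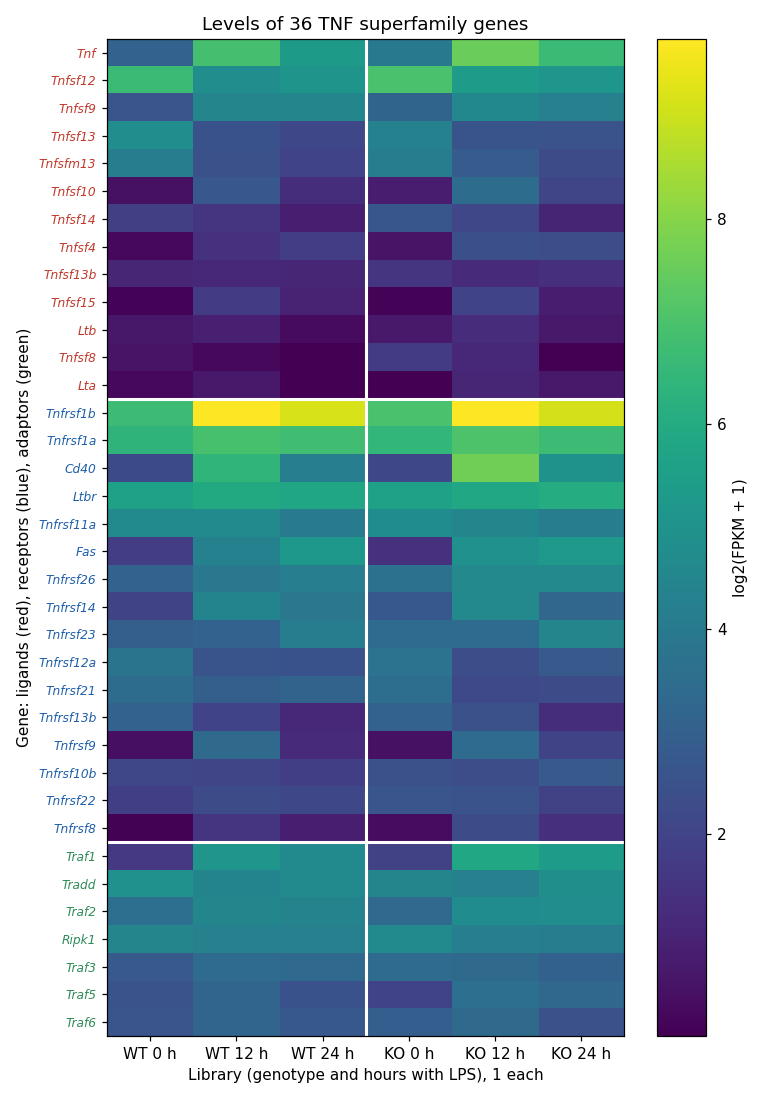
Levels of the 36 genes as log2(FPKM + 1), shown by colour, with genes in rows (ligands red, receptors blue, adaptors green, each ordered by mean FPKM) and the 6 libraries in columns. Tnfrsf1b is brightest at 12 and 24 h in both genotypes, and Tnf and Cd40 are brightest in the KO 12 h library.

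Cd40, the receptor by which T cells activate macrophages, had the widest range of all 36 genes on the log2(FPKM + 1) scale. Its WT levels were 3.61, 82.4 and 17.3 FPKM at 0, 12 and 24 h. Its levels in the libraries labelled KO were 3.35, 199.9 and 31.3 FPKM. The genotypes were alike at 0 h, and the KO libraries were higher at both times with LPS. The differences were -0.08, 1.27 and 0.82, and the 12 h value was the 1 call of 36 at that time, against 1.32% of measured genes. The level at 12 h was 22.8-fold that at 0 h in WT and 59.7-fold in KO. By 24 h it had returned to 0.21 of the 12 h level in WT and 0.16 in KO.

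Other receptors of the costimulatory kind also peaked at 12 h. Tnfrsf9 (4-1BB) was at 0.36, 9.45 and 1.33 FPKM in WT and at 0.39, 9.81 and 3.03 in KO. The libraries were close at 0 and 12 h, and at 24 h the one labelled KO was higher by 0.79, short of a call. Tnfrsf8 (CD30) was at 0.06, 1.82 and 0.80 FPKM in WT and at 0.27, 3.81 and 1.56 in KO. Tnfrsf14 (HVEM) was at 3.04, 20.4 and 13.9 FPKM in WT and at 5.60, 23.5 and 8.49 in KO. Its order changed over time, with KO above WT at 0 h (0.71) and below it at 24 h (-0.65). With the length trend removed these were 1.05, a call, and -0.84.

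Fas, a death receptor, did not peak at 12 h. It stood at 2.47, 18.9 and 36.4 FPKM in WT and at 1.70, 30.0 and 36.7 in the libraries labelled KO. The genotypes met at 24 h, and KO was higher at 12 h by 0.64. Tnfrsf10b, the mouse receptor of TRAIL, varied between 2.58 and 3.33 FPKM in WT and between 3.99 and 5.64 in KO, and its 24 h difference of 0.89 was short of a call, which trimmed-mean scaling or a pseudocount of 0.1 gave. Tnfrsf21 (death receptor 6) was at 10.1, 6.88 and 7.79 FPKM in WT and at 10.6, 3.46 and 3.83 in KO. It had the lowest differences of KO against WT among the 36 genes at 12 h (-0.82) and 24 h (-0.86), both short of a call. With LPS, Tnfrsf21 was called lower in KO at both times (-1.38 and -1.27). A pseudocount of 5 ended both calls, and trimmed-mean scaling ended the one at 24 h.

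Of the receptors for these factors, Tnfrsf12a was called lower with LPS at 12 h in both genotypes and at 24 h in WT, and Tnfrsf13b at both times in WT and at 24 h in KO. Tnfrsf12a, the receptor of TWEAK, was at 12.8, 4.80 and 4.57 FPKM in WT and at 12.2, 4 and 5.77 in KO. Tnfrsf13b (TACI), a receptor of APRIL and BAFF, was at 7.55, 2.94 and 1.16 FPKM in WT and at 7.43, 4.49 and 1.46 in KO. The WT calls at 12 h, at -1.25 for Tnfrsf12a and -1.12 for Tnfrsf13b, ended with the length trend removed (-0.69 and -0.58), with trimmed-mean scaling and with a pseudocount of 5. With that trend removed, Tnfrsf12a was called lower at 24 h in KO (-1.38 in place of -0.96) and Tnfrsf13b from 12 to 24 h in WT (-1.12 in place of -0.87). Both were within 0.48 of WT at every time. Ltbr, the lymphotoxin β receptor, was steady at 47.4 to 65.7 FPKM over all 6 libraries. Tnfrsf11a (RANK), through which macrophage precursors become osteoclasts, lay between 15.6 and 25.9 FPKM, with its lowest values at 24 h in both genotypes. Its ligand gene Tnfsf11 was at 0.04 FPKM or less.

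Tnfrsf22, Tnfrsf23 and Tnfrsf26 lie side by side on chromosome 7 (143607685 to 143686436) and resemble each other, so reads may have been split among them. Tnfrsf22 and Tnfrsf23 are decoy receptors for TRAIL in mice. Tnfrsf23 was at 6.95 to 16.6 FPKM in WT and 9.73 to 21.1 in KO, and was the 1 member called higher from 12 to 24 h in each genotype (1.05 and 1.04, and no longer called with the length trend removed). Its KO difference of 24 h from 0 h, called at 1.03, was 0.88 with that trend removed. Tnfrsf26 was at 7.45 to 17.4 FPKM in WT and 12.0 to 23.3 in KO, where the same difference went from 0.90 to 1.03 and so reached a call. Tnfrsf22 was at 2.59 to 3.92 and 2.89 to 4.98 FPKM.

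Among the adaptors, Traf1 responded most. TRAF1, which modulates TRAF2 signals and is itself a target of NF-κB, had its gene at 2.10, 33.2 and 24.8 FPKM in WT and at 2.74, 56.2 and 40.7 in the libraries labelled KO. KO was higher by 0.27, 0.74 and 0.69, none called. Traf2, an adaptor of many receptors, ranged from 9.24 to 26.9 FPKM over all libraries. Traf5 was at 4.54 to 8.27 FPKM in WT and 2.92 to 10.8 in KO. Both were called higher with LPS in KO at 12 and 24 h (1.39 and 1.44 for Traf2, 1.59 and 1.29 for Traf5). In WT the same differences were 0.93 and 0.81 for Traf2, and 0.71 and -0.04 for Traf5, short of a call. Trimmed-mean scaling called Traf2 higher in WT at both times. A pseudocount of 5 ended the KO call of Traf5 at 24 h. The difference between the genotypes was not tested. Traf3, which restrains the noncanonical NF-κB pathway, Traf6, which acts below Toll-like receptors, Tradd and Ripk1 spanned at most 0.93 on the log2(FPKM + 1) scale over all 6 libraries. Their FPKM ranges were 5.70 to 9.83, 4.47 to 9.41, 18.4 to 29.8 and 16.1 to 23.8. Traf4 did not reach 1 FPKM.

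Over the 36 genes, the share called higher with LPS was above the background and the share called lower was near it. At 12 h, 12 members were called higher in WT and 15 in the libraries labelled KO, against 9.64% and 8.63% of measured genes. Lta, among the 15, reached 1 FPKM in the KO 12 h library alone. On the lower side there were 5 and 5, against 17.4% and 17.5%. At 24 h, 10 were called higher in WT and 13 in KO, against 7.65% and 7.55%, and 6 and 7 lower, against 13.9% and 21.6%. The overlapping genes Tnfsf12, Tnfsf13 and Tnfsfm13 are in each of the 4 lower counts, so each holds 1 locus 3 times. The median member difference from 0 h was 0.51 in WT and 0.50 in KO at 12 h, where the medians of all measured genes were -0.28 and -0.36. At 24 h the member medians were 0.24 and 0.46, and those of all genes -0.25 and -0.39. Trimmed-mean scaling brought the 4 medians of all genes to between -0.03 and -0.01 and those of the members to between 0.47 and 0.80. Lower calls in WT at 12 h were then 3. The members were chosen by name, with earlier results of these libraries known. Between 12 and 24 h, 1 member was called higher and 4 lower in WT (Cd40, Tnf, Tnfrsf9 and Tnfsf10), against 1.83% and 3.8% of measured genes. In the libraries labelled KO 1 was called higher and 8 lower, against 4.78% and 7.67%; Cd40, Tnfrsf9 and Tnfsf10 were among the 8, and Tnf joined them with the length trend removed.

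**Figure D3:**
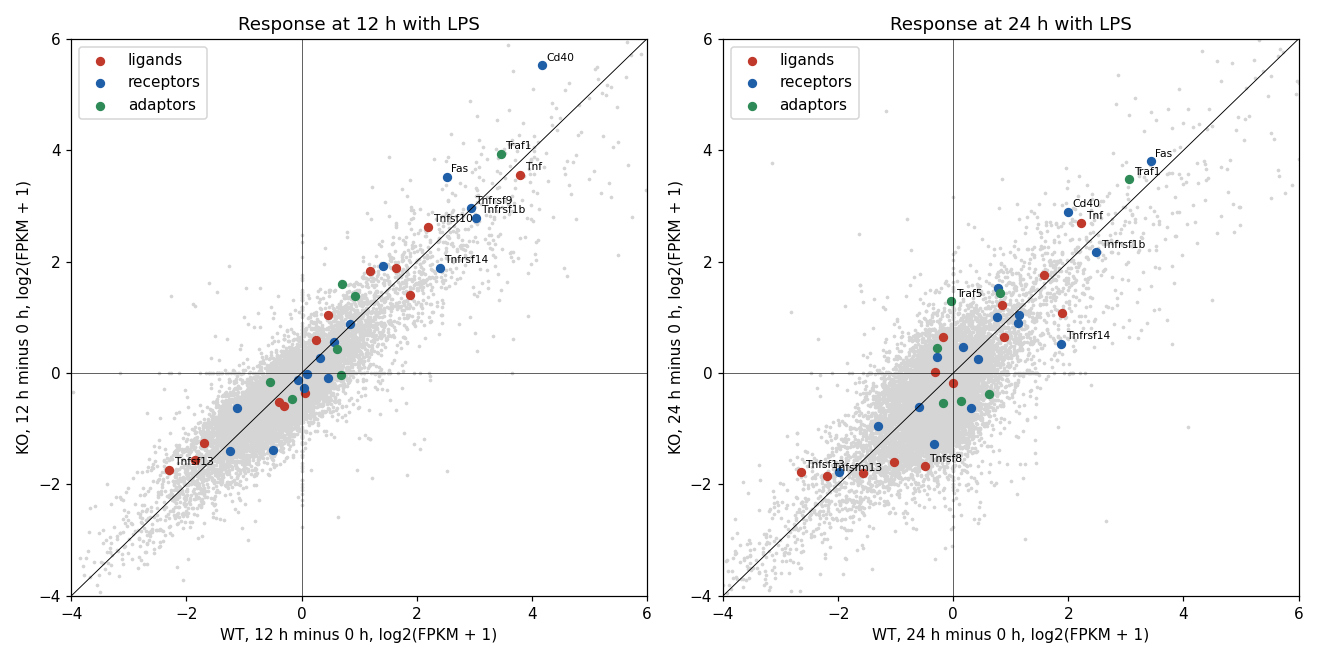
The LPS response in KO (vertical axis) against that in WT (horizontal axis), each as a difference of log2(FPKM + 1) from 0 h, at 12 h (left) and 24 h (right). Members are coloured by role, other measured genes are grey, those beyond the axes are not drawn, and the line marks equal responses. Of the members, Cd40 lies highest at 12 h, at 4.18 in WT and 5.53 in KO.

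Some members differed in the size of their response. The KO response minus the WT response at 12 h was 1.35 for Cd40 and 1.002 for Fas. At 24 h it was 1.33 for Traf5, and -1.36 for Tnfrsf14, -1.17 for Tnfsf8 and -0.996 for Traf3. Each of these uses 4 libraries, and the same 0 h libraries enter both times. How common such differences are among all measured genes was not tested. With the length trend removed, the 12 h responses of Fas were 2.94 (WT) and 3.73 (KO), a gap below 1. Those of Cd40 were 4.29 and 5.58. The 0 h values of Fas rest on about 52 reads (WT) and 36 (KO). For Tnfsf8, the 24 h values rest on about 2 reads (WT) and 3 (KO). Its -1.17 thus mostly restates its 0 h difference of 1.20. Traf5 started lower in KO, at 2.92 FPKM against 4.68 in WT at 0 h (-0.535), which enters its 1.33. Traf3 went from 5.70 to 9.30 FPKM in WT and from 9.64 to 7.20 in KO over 24 h. With the length trend removed, KO against WT for Traf3 was 0.27 at 0 h and -0.05 at 24 h in place of 0.67 and -0.33. For Tnfrsf14 the correction left KO above WT at 0 h and below it at 24 h.

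KO against WT gave few calls. At each time 1 of 36 members was called higher, namely Tnfsf8, Cd40 and Tnf in turn. The shares of measured genes called higher were 2.97%, 1.32% and 2.22%. None was called lower at any time, where 1.26%, 0.736% and 1.94% of measured genes were. With 36 members, the counts on both sides are near these shares. The median member difference was 0.22 at 0 h, 0.25 at 12 h and 0.28 at 24 h, where all measured genes had 0.02, -0.06 and -0.12. With the length trend removed the member medians were 0.21, 0.27 and 0.22. Trimmed-mean scaling moved the 24 h median of all genes from -0.12 to -0.01 and that of the members to 0.40. At any size, 24, 29 and 26 of the 36 were above WT at 0, 12 and 24 h, against 52.1%, 39.4% and 37.4% of measured genes. Among the 13 ligands these were 9, 13 and 11, among the 16 receptors 11, 12 and 11, and among the 7 adaptors 4 at each time. The adaptor median at 0 h went from 0.19 to -0.21 with the length trend removed. At any size, 14 of 36 members were higher in the libraries labelled KO at all 3 times, against 11.3% of measured genes, and 0 were lower at all 3, against 19.8%. At 2-fold or more at all 3 times there were 0 in either direction, against 0.139% of measured genes higher and 0.026% lower. The 14 were Tnf, Ltb, Tnfsf4, Tnfsf8, Tnfsf10, Tnfsf12, Tnfsf13b, Tnfsf14, Tnfrsf8, Tnfrsf9, Tnfrsf10b, Tnfrsf23, Tnfrsf26 and Traf1. Some entered on differences near the floor, as Tnfsf8 at 24 h (0.03), Ltb at 0 h (0.04) and Tnfrsf9 at 0 h (0.03). Tnfsf8, Lta and Ltb reached 1 FPKM only in libraries labelled KO, so they entered the 36 through the side where they were higher. All of them count as above WT at 12 h, Tnfsf8 and Ltb are in the 14, and Tnfsf8 is the 0 h call. Their place in these counts is thus no support for a higher level in KO. With the length trend removed, Tnfsf12 was below WT at 24 h (-0.08). Cd40, Tnfrsf1b, Tnfrsf13b and Tnfsfm13 then had values above 0 at all 3 times. Of these, Cd40 at 0 h (0.0001) and Tnfrsf1b at 12 h (0.0025) were in effect level with WT, and Tnfrsf13b at 24 h was at 0.05. Limma's additive fit of genotype and time takes its error from how the genotype difference varies between times, and not from replicates. With this limma fit 0 members passed an adjusted p of 0.05. Of all measured genes, 0 did on the higher side and 0.0173% on the lower. Tnf came nearest, with a mean difference of 0.95 and an adjusted p of 0.21 from limma. In that fit 11 members had an unadjusted p under 0.05 on the higher side and 0 on the lower, against 4.36% of measured genes on each side. Tnfsf8 was among the 11.

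**Figure D4:**
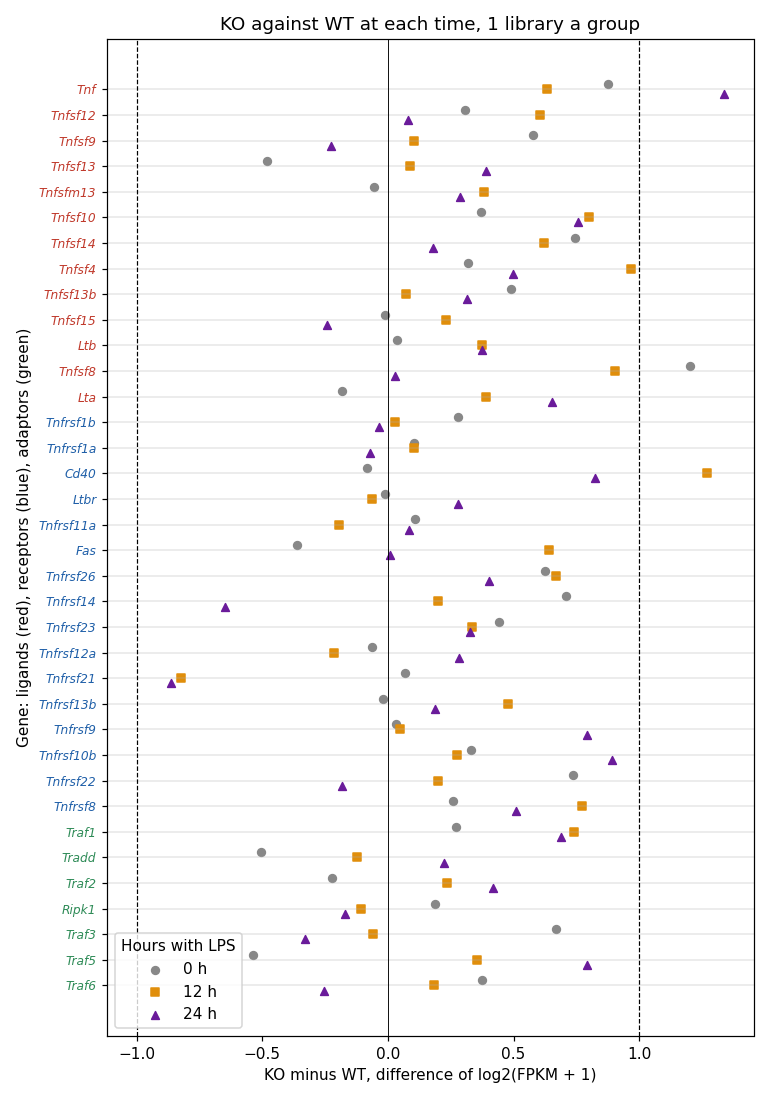
KO minus WT as a difference of log2(FPKM + 1) (horizontal axis) for the 36 genes (rows, ligands red, receptors blue, adaptors green) at 0 h (grey circles), 12 h (orange squares) and 24 h (purple triangles), 1 library a group. Dashed lines mark the 2-fold rule of size, which Tnfsf8 passes at 0 h, Cd40 at 12 h and Tnf at 24 h, while Tnfrsf21 has the lowest values.

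The other genes of TNF receptor signalling were read from a list of 49 names, of which 47 were measured. With LPS, 18 were called higher in WT and 17 in KO at 12 h, against 9.64% and 8.63% of measured genes. At 24 h these were 14 and 12, against 7.65% and 7.55%. On the lower side there were 1 in WT (Otulin) and 2 in KO (Otulin and Adam10) at 12 h, against 17.4% and 17.5%; in WT the length correction put Adam10 (-1.04) in place of Otulin (-0.99). At 24 h there were 1 in WT (Adam10) and 4 in KO (Adam10, Furin, Rel and Xiap), against 13.9% and 21.6%, and the length correction ended the last 3 of these. KO against WT gave 3 calls at 0 h, all higher, against 2.97%, and 0 at 12 and 24 h. These were Tnfaip3 (A20, which ends NF-κB signals), Mlkl (the effector of necroptosis) and the NF-κB subunit gene Rel. Tnfaip3 was at 3.56, 58.5 and 17.8 FPKM in WT and at 9.69, 105 and 22.2 in the libraries labelled KO. Mlkl was at 9.48, 74.2 and 43.9 FPKM in WT and at 22.9, 110 and 76.9 in KO, above WT at each time by 1.19, 0.56 and 0.79. Rel was at 1.70, 5.44 and 2.64 FPKM in WT and at 4.44, 7.28 and 1.60 in KO, higher in KO at 0 h by 1.01 and lower at 24 h (-0.49, not called). The 0 h value corrected for length was 0.67, no longer a call. The largest other responses were of Nfkb2, Nfkbie, Ikbke and Cflar, with peaks at 12 h of 124, 46.7, 105 and 72.1 FPKM in WT and of 152, 53.4, 126 and 90.4 in KO. Chosen after its values were seen, Adam17, the protease that releases TNF from the cell surface, was at 56.0, 86.5 and 92.6 FPKM in WT and at 52.3, 78.5 and 56.0 in KO, a 24 h difference of -0.72, short of a call. The list median of KO against WT was 0.19, 0.12 and -0.12.

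The remaining 13 genes found by name stayed under 1 FPKM. They were the ligand genes Cd70, Tnfsf11, Tnfsf18 and Eda, the receptor genes Cd27, Tnfrsf4, Tnfrsf18, Tnfrsf11b, Tnfrsf13c, Tnfrsf17, Tnfrsf19 and Edar, and Traf4. Tnfrsf4 (OX40) came closest, at 0.29 to 0.83 FPKM. At the other side of the minimum were Lta and Ltb, with highest values of 1.11 and 1.41 FPKM. Of the 49 genes, 23 form 9 groups of 2 or 3 neighbours that lie within 1 Mb of each other. On chromosome 17, Tnf and its flanking genes peaked together at 12 h at very different levels. On chromosome 4, Tnfrsf1b and Tnfrsf8, which lie within 102.8 kb, were both higher with LPS at 12 h in WT and KO. On the same chromosome Tnfsf15 and Tnfsf8, within 136.9 kb, had differences from 0 to 12 h of opposite sign, at 1.65 and -0.30 in WT and 1.89 and -0.60 in KO.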

How the data were processed

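RNA of 6 libraries of mouse bone marrow-derived macrophages, 1 per group, was measured on the BGISEQ-500 platform, per the labels' protocols. The deposited values are FPKM computed by the authors, with 2 decimals, per the file headers. Bowtie2, RSEM and build GRCm38 are named in the submitters' processing notes; versions and settings are not given in the sources used here. Counts were not used. 2 cells of the KO 0 h column are not numbers and were read as missing; neither is a member.

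Differences of log2(FPKM + 1) were computed for genes with at least 1 FPKM in any library (11549), and called at 1 or more; no single pair has a test. Levels in every library were given for Tnf and its receptors, for members at 5 FPKM or more called in KO against WT, and for up to 10 members each way with the largest LPS difference. Members, lists and this rule were chosen with earlier results of these data known. Pathway genes were named when called in KO against WT at 5 FPKM or more, with 4 others of the largest LPS difference. Further members are given mostly as ranges.

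Depth was estimated by fitting whole-read steps in 861 to 1018 genes. Transcript lengths were from GENCODE M21 (99.6% of measured genes). The length trend was a lowess curve (span 0.3, genes with a mean of 10 FPKM or more) in each library. Alternatives were pseudocounts of 0.1 and 5, no minimum, trimmed-mean scaling, the length trend removed and limma 3.58.1 (additive fit, trend and robust, Benjamini-Hochberg). Python 3.11.15 and statsmodels 0.14.6 were used. The calls, the length correction and the limma fit were tested on simulated data.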

Additional observations from a re-analysis of the deposited data

How the results depend on the processing

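Of 82 counts of called members recomputed under an alternative, 66 stayed within 1.5 times the reported count. With a pseudocount of 0.1, KO against WT gave 3 higher and 1 lower at 0 h, 4 higher at 12 h, and 6 higher and 1 lower at 24 h; the added members were Tnfrsf8, Tnfsf4, Tnfsf8, Lta, Ltb, Tnfrsf10b, Tnfrsf9, Tnfsf10 and Tnfrsf21. With a pseudocount of 5, 0 members were higher at 0 h, lower calls with LPS at 12 h were 3 in WT and 2 in KO, and at 24 h in KO calls were 6 higher and 3 lower. A larger pseudocount shrinks low genes by construction. Trimmed-mean scaling gave 2 higher for KO against WT at 12 h (with Tnfsf4) and 2 at 24 h (with Tnfrsf10b), and 3 lower in WT at 12 h. With the length trend removed, 3 were higher at 0 h (with Tnf and Tnfrsf14), 2 at 12 h (with Tnfsf4), and 3 lower in WT at 12 h. For KO against WT, Cd40 at 12 h and Tnf at 24 h were called under each of these 4 settings. Of the 66, the 16 without a minimum FPKM could not differ by construction and the 2 from limma compare 0 with 0. Further counts among the 66 also compare 0 with 0, for lower calls of KO against WT and for calls at all 3 times. None of these bears on stability. No paired analysis was possible because each group holds 1 library and the groups share only the number 1. The values of Lta, Ltb, Tnfsf8 and Tnfsf15 rest on few reads.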
